A study of Mus musculus with 6 samples.

Results

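The clustered protocadherins are cell-adhesion proteins of the cadherin superfamily, encoded by 3 gene clusters that lie one after the other on mouse chromosome 18. They were taken here as all genes of the count table whose symbol begins with Pcdha, Pcdhb, Pcdhga, Pcdhgb or Pcdhgc, which gave 56 of 29493 genes, 13 in the alpha, 21 in the beta and 22 in the gamma cluster. Their messenger RNA was counted by RNA sequencing in HT22-TR/TO-V5Klf13-1, a derivative of the mouse hippocampal neuronal line HT22. Every library comes from this line, which carries V5-tagged KLF13, a zinc-finger transcription factor, behind the tet repressor, so that doxycycline releases the transgene. In the Dox group (n = 3) the cells received 1 µg/ml doxycycline for 8 hours, and in the Vehicle group (n = 3) the same line received vehicle. Cells lacking the transgene were not among the doxycycline-treated samples, so the effects of KLF13 and of the drug cannot be told apart. Whether replicates are separate cultures is not stated by the labels, so the spread between them may be technical.

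In neurons, clustered protocadherins on opposing membranes bind the same isoform on the other cell, and the combination of isoforms a neuron makes serves as its surface identity in self-recognition of dendrites and axons. The alpha and gamma clusters each hold an array of variable exons, every one with its own promoter, which are spliced to constant exons that all genes of the cluster share and that encode the common cytoplasmic end. Beta genes have no constant exons. CTCF and cohesin bring chosen promoters to distant enhancers, and DNA methylation and SMCHD1 keep other promoters silent. Each of the 22 beta genes annotated by GENCODE M21 has 1 exon in its longest transcript, while the longest transcripts of alpha and gamma genes are spliced.

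The alpha cluster spans 36930184 to 37187661 on chromosome 18 (GRCm38, GENCODE M21), the beta cluster 37264938 to 37524479 and the gamma cluster 37661793 to 37841873, all transcribed from the plus strand. How reads that match several of these genes were counted is not given in the sources used here, and the clusters differ in how many such reads there can be. Of all stretches of 100 bases in a gene's transcripts, the share also found in another annotated gene had a median of 56.3% in the alpha cluster (47.7 to 90.0%), 0.207% in the beta cluster (0 to 62.3%) and 45.0% in the gamma cluster (31.8 to 97.9%). The value of 62.3% belongs to Pcdhb12, which is overlapped by the antisense transcript Gm37446, and the next highest beta values, 7.73% for Pcdhb21 and 5.39% for Pcdhb22, belong to neighbours whose ends overlap. Apart from those 3 genes, beta values can therefore be read gene by gene as far as matches of 100 bases go. Stretches of 50 bases were shared more often, with a beta median of 4.48%. Pcdhb11, Pcdhb9 and Pcdhb7 had 9.52, 8.75 and 8.57% there, the highest beta values after those 3 genes. Alpha and gamma values are best read as sums over the cluster, which do not change when shared reads pass from one member to another. Since alpha and gamma symbols also share exons, a level given for one of them is the count assigned to that symbol and not a count of its promoter's transcripts. Pcdha11 stands for a pair of annotated genes with that symbol, and Pcdhb1 is not analysed here.

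Total counts ranged from 38566798 to 52930384 per library. Klf13, the induced gene, had 205, 188 and 184 CPM (counts scaled to the effective library size) in the Dox libraries, against 37.0, 36.1 and 39.1 CPM in the Vehicle libraries (log2 fold change 2.36 ± 0.054, SE; adjusted p = 1.5e-06 by edgeR's quasi-likelihood test). Dox replicate 2 stood apart from the other libraries within the gamma cluster, as described below. Fold changes of the gamma sum, Pcdhga7 and Pcdhgc4 are given there with and without it. Of 20 neuronal markers listed, 7 were not analysed here and 13 had summed levels of 33.1 to 34.7 CPM in Dox and 97.5 to 98.6 CPM in Vehicle libraries. Tubb3, Dlg4 and Syn1 were the most abundant of them, and Map2 was at 0.103 CPM in Dox and 0.175 CPM in Vehicle libraries on average. Fibroblast markers, led by Col1a2, Col3a1 and Col1a1, summed to 8159 to 8541 CPM in Dox and 9992 to 10519 CPM in Vehicle libraries. Astrocyte markers summed to 56.1 to 219 CPM in Dox and 73.5 to 204 CPM in Vehicle libraries, nearly all of it Gja1, which ranged from 9.20 to 175 CPM over the Dox libraries, and Slc1a3, with Gfap next, while the other astrocyte markers were under 0.1 CPM on average. Microglial markers, most of them Tmem119, Ptprc and Csf1r, summed to 26.7 to 28.4 CPM in Dox and 35.4 to 37.5 CPM in Vehicle libraries. P2ry12 was at 0 in all Dox libraries and had 0, 0 and 2 counts in the Vehicle libraries. Oligodendrocyte markers (Cnp and Mbp among them) and endothelial markers (Cdh5, Pecam1 and Tek first) summed to under 5 CPM in every library. With Dox, the tested markers that rose and fell numbered 0 and 5 of 7 for neurons and 0 and 5 of 7 for fibroblasts. They numbered 1 and 0 of 2 for astrocytes, 1 and 1 of 3 for microglia and 1 and 0 of 2 for endothelium. For oligodendrocytes the numbers were 0 and 1 of 3. Among all genes tested, 25.9% rose and 28.8% fell (edgeR adjusted p under 0.05). The part of these cell types in the results was not tested.

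The family had been singled out with earlier results of the same comparison in view, so the Dox and Vehicle values of its members are given as a description and their fold changes carry no p-value. Their calls by the fit over all genes (edgeR quasi-likelihood test, adjusted p under 0.05) are counted beside the share of all 18067 genes tested that were called, and nothing is read from the counts. In a bulk library, more cells that express a gene and more RNA per cell cannot be told apart.

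All 3 clusters had a higher summed level with Dox, and the beta cluster had the largest ratio. Summed over its 21 genes, the beta cluster had 92.7, 105 and 95.1 CPM in the Dox libraries, against 53.8, 61.0 and 55.6 CPM in the Vehicle libraries, a ratio of 1.72. The gamma cluster had 169.7, 157 and 159.7 CPM in the Dox libraries, against 136, 135 and 127 CPM in the Vehicle libraries, a ratio of 1.22. The alpha cluster was far less abundant, with 4.58, 4.62 and 4.56 CPM in the Dox libraries, against 3.10, 3.48 and 3.63 CPM in the Vehicle libraries, a ratio of 1.35. In each cluster the lowest Dox library lay above the highest Vehicle library. On the log2 scale these ratios were 0.78 for beta, 0.29 for gamma and 0.43 for alpha, beside a median log2 fold change of 0.018 over all genes tested, and replicates of a group had a pooled SD of 0.095, 0.056 and 0.083 in the same order of clusters. Upper-quartile scaling, which moves the median of all genes to 0.11, gave 0.38 for gamma.

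**Figure D1:**
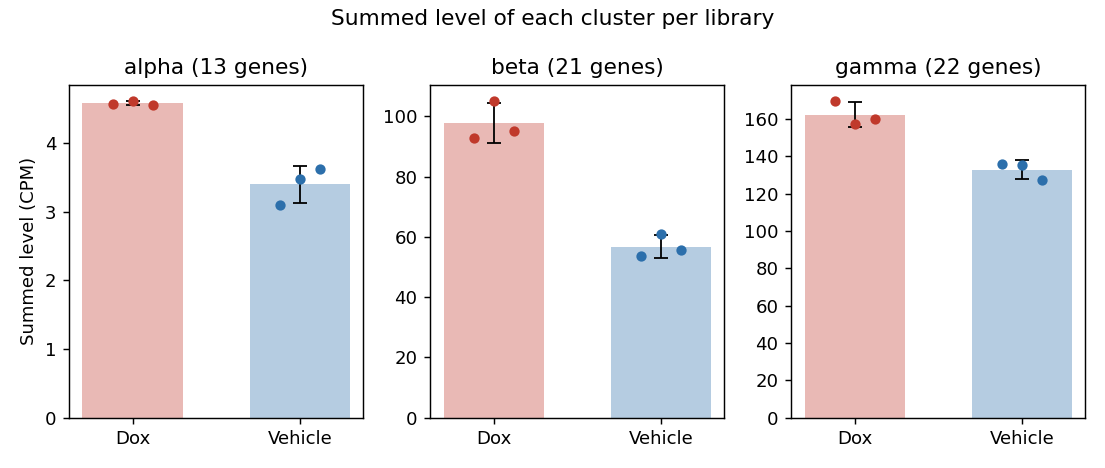
Summed level in CPM (vertical axes, each from 0) of the alpha, beta and gamma clusters in the Dox and Vehicle groups. Points are libraries, bars are group means and error bars are the SD (n = 3). The 3 Dox libraries lie above the 3 Vehicle libraries in every panel, with means of 97.7 and 56.8 CPM in the beta cluster.

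Gamma genes made up most of the clustered protocadherin counts in every library. Their share was 63.6, 58.9 and 61.6% in the Dox libraries, against 70.5, 67.7 and 68.2% in the Vehicle libraries. The beta share was 34.7, 39.4 and 36.7% in the Dox libraries, against 27.9, 30.5 and 29.8% in the Vehicle libraries, and the alpha share was 1.61 to 1.94% throughout. The beta share was thus higher, and the gamma share lower, in each Dox library than in any Vehicle library.

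Of the beta genes analysed here, the 10 furthest upstream are Pcdhb2 to Pcdhb11, a group set apart after the values were seen. All 10 had Dox levels above Vehicle levels with no overlap, beside 31.8% of all genes tested. Their log2 fold changes lay between 1.00 and 1.43. Pcdhb5 had the highest level per length of the 10 genes, 3.93 CPM per kb of transcript with Dox and 1.46 with Vehicle. It had 14.02, 14.4 and 13.2 CPM in the Dox libraries, against 4.90, 5.81 and 4.74 CPM in the Vehicle libraries, a log2 fold change of 1.43 ± 0.089 (SE). Pcdhb7 had 7.75, 8.29 and 8.04 CPM in the Dox libraries, against 3.21, 3.48 and 3.07 CPM in the Vehicle libraries, a log2 fold change of 1.304 ± 0.068. All beta proteins are predicted adhesion molecules with cadherin ectodomains and short cytoplasmic ends of their own, and no separate role is given here for single members. Pcdhb9 had 6.93, 6.36 and 6.08 CPM in the Dox libraries, against 2.89, 3.29 and 3.14 CPM in the Vehicle libraries, a log2 fold change of 1.05 ± 0.079. Pcdhb11 had 5.24, 4.84 and 4.47 CPM in the Dox libraries, against 2.23, 2.14 and 2.01 CPM in the Vehicle libraries, a log2 fold change of 1.19 ± 0.086. Pcdhb4 had 3.19, 4.09 and 3.48 CPM in the Dox libraries, against 1.11, 1.78 and 1.39 CPM in the Vehicle libraries, a log2 fold change of 1.33 ± 0.18. In each of these 5 genes the lowest Dox library was well above the highest Vehicle library.

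The other genes of this stretch were scarcer and had fold changes of the same size. Pcdhb6 had 1.29, 1.36 and 1.07 CPM in the Dox libraries, against 0.530, 0.384 and 0.540 CPM in the Vehicle libraries, a log2 fold change of 1.35 ± 0.18. Pcdhb10 had 0.658, 0.750 and 0.709 CPM in the Dox libraries, against 0.292, 0.264 and 0.251 CPM in the Vehicle libraries, a log2 fold change of 1.39 ± 0.16. The values of Pcdhb10 rest on 28 to 37 counts per Dox library and 11 to 13 counts per Vehicle library. Pcdhb2 and Pcdhb3 averaged 0.566 ± 0.0710 and 0.907 ± 0.0911 CPM in the Dox group, against 0.279 ± 0.0254 and 0.447 ± 0.0436 CPM in the Vehicle group (SD, n = 3), with log2 fold changes of 1.00 ± 0.19 and 1.01 ± 0.15 (SE). Pcdhb8 had 10, 19 and 11 counts in the Dox libraries, against 1, 6 and 8 counts in the Vehicle libraries, and was the gene of these 10 that the fit did not call.

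Downstream of Pcdhb11, the 7 tested genes from Pcdhb14 to Pcdhb20 had log2 fold changes between -0.11 and 0.55, while Pcdhb12, Pcdhb13, Pcdhb21 and Pcdhb22 are given further on. Pcdhb16 had the highest level per length of the beta genes with Vehicle, 2.18 CPM per kb, and 2.87 CPM per kb with Dox. It had 14.3, 16.98 and 13.7 CPM in the Dox libraries, against 10.5, 12.5 and 11.1 CPM in the Vehicle libraries, a log2 fold change of 0.40 ± 0.11. Pcdhb14 had 9.47, 10.6 and 9.82 CPM in the Dox libraries, against 6.18, 7.68 and 6.60 CPM in the Vehicle libraries, a log2 fold change of 0.55 ± 0.094. Those libraries did not overlap either, though the gap between groups was narrower than for Pcdhb5. Pcdhb17 had 7.40, 7.74 and 7.39 CPM in the Dox libraries, against 4.98, 5.88 and 5.42 CPM in the Vehicle libraries, a log2 fold change of 0.47 ± 0.073. Pcdhb19 and Pcdhb20 averaged 5.34 ± 0.486 and 3.08 ± 0.402 CPM in the Dox group, against 3.82 ± 0.108 and 2.40 ± 0.0625 CPM in the Vehicle group (SD, n = 3), with log2 fold changes of 0.48 ± 0.082 and 0.36 ± 0.11. Pcdhb18 overlapped between groups, with 2.13 to 2.61 CPM in Dox and 1.64 to 2.14 CPM in Vehicle libraries and a log2 fold change of 0.40 ± 0.14. Pcdhb15 had 2.16, 2.33 and 2.15 CPM in the Dox libraries, against 2.25, 2.64 and 2.28 CPM in the Vehicle libraries, a log2 fold change of -0.11 ± 0.094. It lies between Pcdhb14 and Pcdhb16, which were called higher, and was not called in either direction.

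Summed over Pcdhb2 to Pcdhb11, the level was 40.9, 41.8 and 38.8 CPM in the Dox libraries, against 15.9, 18.03 and 16.1 CPM in the Vehicle libraries, a ratio of 2.43. Summed over the 11 genes from Pcdhb12 to Pcdhb22, it was 51.8, 63.3 and 56.3 CPM in the Dox libraries, against 37.9, 43.0 and 39.5 CPM in the Vehicle libraries, a ratio of 1.42. The upstream 10 genes thus held 44.1, 39.8 and 40.8% of the beta counts in the Dox libraries, against 29.5, 29.6 and 28.9% in the Vehicle libraries. Spearman's correlation between a gene's place in the cluster and its log2 fold change was -0.47 over the 20 beta genes tested, and -0.69 over 17 without Pcdhb12, Pcdhb21 and Pcdhb22. It is a description, because all genes come from the same 6 libraries, and the division after Pcdhb11 was chosen after the values were seen.

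**Figure D2:**
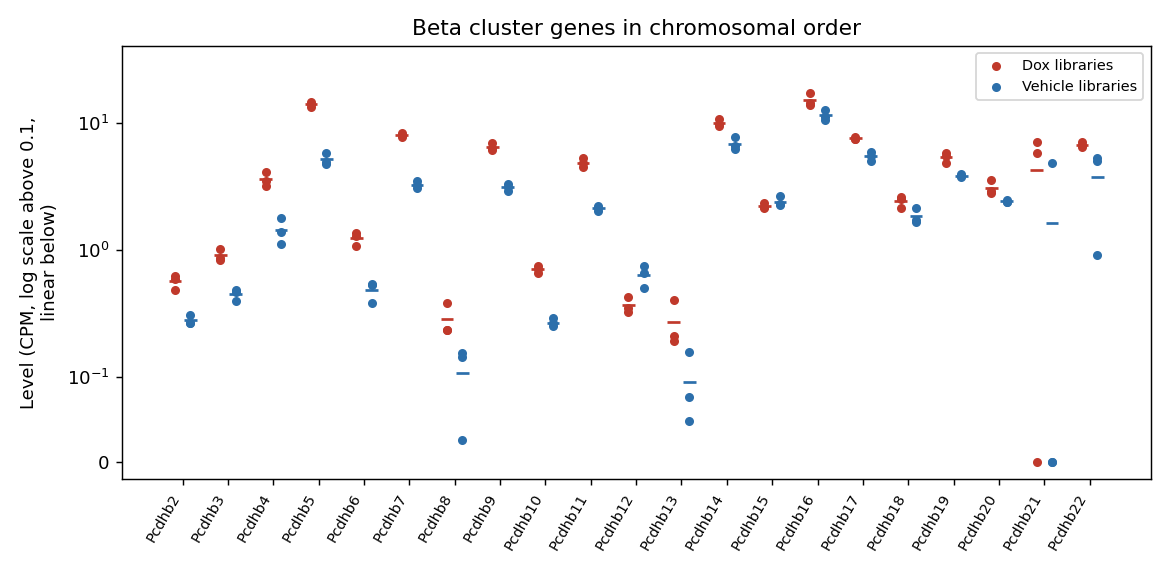
Level of each beta gene in CPM (vertical axis, logarithmic above 0.1 and linear below) in chromosomal order, Dox left and Vehicle right of each tick. Points are libraries and short lines are group means. Dox libraries lie above Vehicle libraries for every gene from Pcdhb2 to Pcdhb11, whereas Pcdhb12 lies below and Pcdhb21 has libraries at 0 in both groups.

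The fit called 15 of the 20 beta genes tested higher with Dox, beside 25.9% of all genes tested, and 1 lower, beside 28.8%. The Dox libraries lay above the Vehicle libraries in 16 of the 20, beside 31.8% of all genes tested. The median log2 fold change of the 20 was 1.00. Pcdhb13 did not pass the filter on low counts and had 9, 20 and 9 counts in the Dox libraries, against 6, 2 and 4 counts in the Vehicle libraries, a ratio of mean levels of 2.85. The calls of 3 downstream genes depended on single libraries. Pcdhb18 was not called without Dox replicate 1 or 2 or without Vehicle replicate 1 or 2, Pcdhb20 not without Dox replicate 3 or any 1 of the Vehicle replicates, and Pcdhb16 not without Vehicle replicate 1 or 3. Without Vehicle replicate 2, Pcdhb22 was called higher. In the authors' deposited table, 11 of the 21 beta genes are marked as called, all of them higher with Dox, beside 17.9% of the genes with an adjusted p marked so. In the authors' deposited table the log2 fold change is 1.39 ± 0.12 for Pcdhb5, 1.26 ± 0.14 for Pcdhb7, 0.39 ± 0.13 for Pcdhb16 and -0.57 ± 0.34 for Pcdhb12 (SE).

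Pcdhb12 was the beta gene called lower. It had 15, 16 and 20 counts in the Dox libraries, against 28, 21 and 34 counts in the Vehicle libraries, a log2 fold change of -0.78 ± 0.21. Gm37446, annotated on the opposite strand across much of Pcdhb12 and named here after its values were seen, had 58, 57 and 48 counts in the Dox libraries, against 17, 3 and 6 counts in the Vehicle libraries, a log2 fold change of 2.53 ± 0.52 (edgeR adjusted p = 0.0063). The sum of both was 73, 73 and 68 counts with Dox and 45, 24 and 40 counts with Vehicle, so it was higher in each Dox library. The strand setting of the counting is not given, so reads from the gene and from its antisense partner cannot be told apart. Without Dox replicate 1 or 2, or Vehicle replicate 1 or 3, Pcdhb12 was not called lower, nor by the DESeq2 Wald test.

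Pcdhb21 and Pcdhb22 overlap at their ends by 455 exonic bases, and their counts varied between replicates of a group. Pcdhb21 had 0, 349 and 266 counts in the Dox libraries, against 0, 202 and 0 counts in the Vehicle libraries. Pcdhb22 had 301, 328 and 300 counts in the Dox libraries, against 200, 38 and 258 counts in the Vehicle libraries. Vehicle replicate 2 therefore had most of the pair's counts under Pcdhb21 and the other Vehicle replicates had none there. The log2 fold changes were 1.42 ± 1.7 for Pcdhb21, larger than those of 9 of the 10 upstream genes, and 0.85 ± 0.54 for Pcdhb22. Summed, the pair had 7.07, 13.7 and 12.2 CPM in the Dox libraries, against 5.30, 5.76 and 4.98 CPM in the Vehicle libraries. Among the Dox libraries Pcdhb22 was steady and Pcdhb21 was not, so the sum of the pair was not steady either. Without this pair the beta sum had a ratio of 1.69, against 1.72 with it.

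Gamma counts were divided among the genes of the cluster in different ways in different libraries, while their sum varied little. Pcdhgb4 held the largest part in 5 of the 6 libraries, with 43.8 and 60.6% of the gamma counts in Dox replicates 1 and 3, against 29.3, 51.3 and 42.3% in the Vehicle libraries. In Dox replicate 2 it held 7.48%, and the largest parts were those of Pcdhga10 with 18.5%, Pcdhgc4 with 15.0% and Pcdhgc3 with 14.9%. Pcdhga10 had 1435 counts in Dox replicate 2 and 0 in each of the other 5 libraries. There, 0 counts allow up to 0.0579 to 0.0795 CPM (3 counts, counting error only). Of the 100-base stretches of Pcdhga10, 97.9% are also found in another annotated gene, and 43.6% in another member of the clusters. Pcdhga10 is also overlapped by the antisense transcript Gm26672. Gm26672 had 6, 5 and 8 counts in the Dox libraries, against 3, 12 and 13 counts in the Vehicle libraries. The limit therefore does not cover reads of Pcdhga10 that were assigned to another gene. Pcdhgc4, one of the C-type genes at the downstream end of the cluster, had 78, 1163 and 71 counts in the Dox libraries, against 58, 65 and 65 counts in the Vehicle libraries. Pcdhga7 had 22, 787 and 19 counts in the Dox libraries, against 21, 22 and 17 counts in the Vehicle libraries. In all 3 genes Dox replicate 2 alone was high, and the other Dox libraries lay near the Vehicle libraries. Summed over the 3 genes, Dox replicate 2 had 68.6 CPM, against 2.35 and 1.93 CPM in the other Dox libraries.

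Abundant gamma genes were among those low in Dox replicate 2, though Pcdhgc3 was not. Pcdhgb4 had 74.4, 11.8 and 96.9 CPM in the Dox libraries, against 39.9, 69.5 and 53.9 CPM in the Vehicle libraries. Pcdhga2 had 27.1, 6.52 and 27.3 CPM in the Dox libraries, against 18.4, 23.97 and 20.7 CPM in the Vehicle libraries. Pcdhgb1 had 10.7, 3.32 and 8.38 CPM in the Dox libraries, against 9.22, 8.91 and 8.64 CPM in the Vehicle libraries. For these 3 genes Dox replicate 2 was the lowest of the 6 libraries. Over the 22 gamma genes, Dox replicate 2 held the highest of the 6 values in 14 and the lowest in 4, the fourth of these being Pcdhga8 with 12 counts. It was more than 5-fold above the next library in 5 genes, Pcdhga6, Pcdhga7, Pcdhga10, Pcdhga12 and Pcdhgc4, and no other library was so for any gamma gene. Yet its gamma sum of 157 CPM lay close to the 169.7 and 159.7 CPM of the other Dox libraries, and without it the log2 ratio of the gamma sum was 0.31, against 0.29 with it. The log2 fold change of Pcdhga7 was 3.61 ± 1.6 with it and -0.01 without it, and that of Pcdhgc4 was 2.64 ± 1.1 with it and 0.22 without it.

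Pcdhgb8, annotated as a polymorphic pseudogene, was split in another way, with 855, 579 and 54 counts in the Dox libraries, against 1380, 43 and 1089 counts in the Vehicle libraries. Dox replicate 3 and Vehicle replicate 2 were low, and these were also the libraries in which Pcdhgb4 had its largest shares. Pcdhgc3, a C-type gene, had 22.01, 23.4 and 12.5 CPM in the Dox libraries, against 17.5, 17.7 and 11.3 CPM in the Vehicle libraries, with overlapping groups. Replicate 3 was the lowest of its group in both. Pcdhgc5 had 1.93, 2.03 and 2.43 CPM in the Dox libraries, against 1.56, 2.14 and 1.08 CPM in the Vehicle libraries. By subgroup, the A-type genes summed to 33.8, 72.5 and 32.7 CPM in the Dox libraries, against 24.7, 30.3 and 25.7 CPM in the Vehicle libraries. The B-type genes summed to 110.2, 35.8 and 110.6 CPM in the Dox libraries, against 90.6, 83.7 and 87.9 CPM in the Vehicle libraries. The C-type genes summed to 25.8, 49.0 and 16.5 CPM in the Dox libraries, against 20.6, 21.4 and 13.6 CPM in the Vehicle libraries. The subgroup sums thus carry the deviation of Dox replicate 2 that the sum over the cluster does not show.

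**Figure D3:**
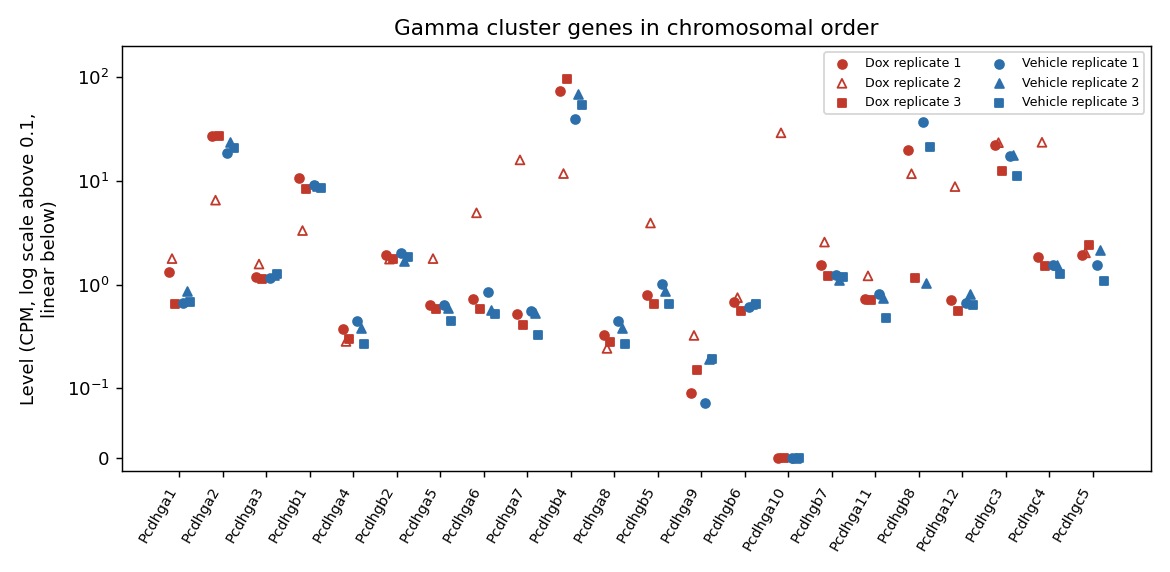
Level of each gamma gene in CPM (vertical axis, logarithmic above 0.1 and linear below) in chromosomal order, Dox left and Vehicle right of each tick, with one symbol per library. Dox replicate 2 (open triangles) lies above all other libraries at Pcdhga6, Pcdhga7, Pcdhga10, Pcdhga12 and Pcdhgc4 and below them at Pcdhga2, Pcdhgb1 and Pcdhgb4.

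The fit without a replicate block called 0 of the 20 gamma genes tested, beside 54.7% of all genes tested called in either direction, and in all 20 the groups overlapped. With the replicate number as a block it called 1, Pcdhgc3, higher. At an unadjusted p under 0.05 the edgeR count was also 0, and the DESeq2 Wald test and limma-voom each called 0 at an adjusted p under 0.05. Without Dox replicate 2 the fit called Pcdhga2 higher, without Dox replicate 3 it called Pcdhga1, Pcdhga7, Pcdhgb7 and Pcdhgc4 higher, and without Vehicle replicate 2 it called Pcdhgc5 higher. Which gamma gene was called thus depended on the library left out. The coefficient of variation within the Dox group had a median of 48.2% over the 20 gamma genes, against 9.58% over the 20 beta genes and 5.22% over all genes tested. In the Vehicle group it was 19.6% over gamma, 9.50% over beta and 5.74% over all genes. The 2 gamma genes left out by the filter were Pcdhga10 and Pcdhga9, which had 4, 16 and 7 counts in the Dox libraries, against 3, 8 and 10 counts in the Vehicle libraries. The gamma sum over the 20 tested genes alone had a log2 ratio of 0.20, since the 1435 counts of Pcdhga10 in Dox replicate 2 were then missing. In the authors' deposited table, 0 of the 22 gamma genes are marked as called, and 5 have no p-value, namely Pcdhga6, Pcdhga7, Pcdhga10, Pcdhga12 and Pcdhgc4.

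**Figure D4:**
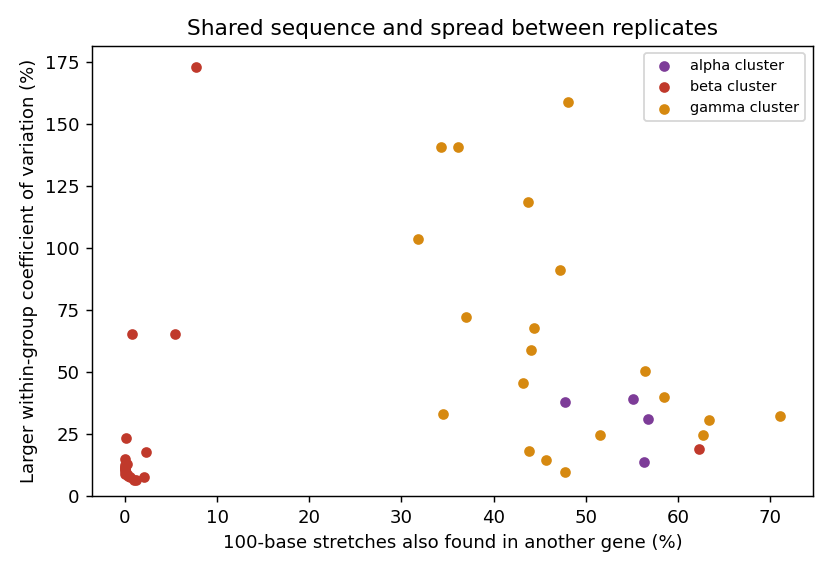
Share of a gene's 100-base stretches that occur in another annotated gene (horizontal axis, %) and the larger of its coefficients of variation within the Dox and the Vehicle group (vertical axis, %), for the 44 tested members. Most beta genes lie at the lower left. Pcdhb21 is the beta gene with the highest spread, at 173% with 7.73% shared, and gamma genes reach a spread of 159%. The 4 alpha genes, with 47.7 to 56.7% shared, have spreads of 39.3% or less.

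The remaining gamma genes had low levels. Pcdhgb2 had 1.95, 1.76 and 1.78 CPM in the Dox libraries, against 2.04, 1.68 and 1.85 CPM in the Vehicle libraries, a log2 fold change of -0.02 ± 0.10. Pcdhgb6 averaged 0.663 ± 0.0967 CPM in the Dox group and 0.638 ± 0.0248 CPM in the Vehicle group (SD, n = 3), and Pcdhga3 averaged 1.31 ± 0.240 CPM in the Dox group and 1.23 ± 0.0559 CPM in the Vehicle group. Pcdhga4 and Pcdhga8 had 12 to 16 counts in every Dox library and 14 to 17 in every Vehicle library. Pcdhga1, Pcdhga5, Pcdhga11, Pcdhgb5 and Pcdhgb7 each had their highest value in Dox replicate 2, from 1.22 CPM for Pcdhga11 to 3.93 CPM for Pcdhgb5, and 1.55 CPM or less in every other library. With Dox replicate 2 included, their log2 fold changes were 1.11 ± 0.73 for Pcdhgb5, 0.86 ± 0.49 for Pcdhga5 and 0.78 ± 0.37 for Pcdhga1. They were 0.59 ± 0.28 for Pcdhgb7 and 0.40 ± 0.30 for Pcdhga11, again with that library. For these 5 genes the other Dox libraries overlapped the Vehicle libraries.

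In the alpha cluster most genes were close to the detection limit, and 9 of 13 did not pass the filter on low counts. Each of these 9, Pcdha4, Pcdha5, Pcdha6, Pcdha7, Pcdha8, Pcdha9, Pcdha11, Pcdha12 and Pcdhac1, had 0 to 13 counts in every library. Pcdha3 was the most abundant alpha gene per length, at 0.320 CPM per kb with Dox and 0.219 with Vehicle. It had 1.69, 1.64 and 1.78 CPM in the Dox libraries, against 1.33, 1.18 and 1.00 CPM in the Vehicle libraries, a log2 fold change of 0.55 ± 0.13. It was called higher, which DESeq2's Wald test did not do, and its groups did not overlap. Pcdha1 had 25, 37 and 31 counts in the Dox libraries, against 13, 17 and 32 counts in the Vehicle libraries, and among the alternatives run was called higher only without Vehicle replicate 3. Pcdha2 had 36, 33 and 33 counts with Dox and 12, 31 and 34 with Vehicle, and Pcdhac2, the C-type gene next to the constant exons, had 10, 15 and 15 with Dox and 9, 18 and 12 with Vehicle. Both of that pair had overlapping groups. Over the whole family, 16 of the 44 tested members were called higher and 1 lower, beside 25.9% and 28.8% of all genes tested, and the median log2 fold change of the 44 was 0.54. A further 12 members did not pass the filter.

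Among levels per length in the Vehicle group, Pcdhgb4 came first with 11.7 CPM per kb, and Pcdhga2, Pcdhgb8 and Pcdhgc3 followed with 4.48, 4.23 and 3.30. The first beta genes in that order were Pcdhb16 with 2.18, Pcdhb5 with 1.46, Pcdhb17 with 1.17 and Pcdhb9 with 1.02 CPM per kb. With Dox, Pcdhb5 stood at 3.93 and Pcdhb16 at 2.87 CPM per kb, and Pcdhb7 and Pcdhb9 at 2.29 and 2.11. Pcdhb5 had 4.74 to 5.81 CPM in Vehicle libraries, and Pcdhb17 with 4.98 to 5.88 CPM from a longer transcript overlapped it in CPM. The gamma values in this order include reads of the shared exons, so they are not the level of a promoter.

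The genes around the clusters were compared with the same test, as neighbours that are not members. Of 21 genes listed, 18 were tested, of which 8 rose and 3 fell with Dox, beside 54.7% of all genes called in either direction. Upstream of the alpha cluster, Zmat2, a zinc-finger protein of the spliceosome, was the nearest listed gene and had 101, 103 and 102 CPM in the Dox libraries, against 63.6, 59.7 and 66.7 CPM in the Vehicle libraries (log2 fold change 0.69 ± 0.044, edgeR adjusted p = 3.1e-05). Hars, the histidyl-tRNA synthetase, rose by 0.54 ± 0.026 on the log2 scale. Sra1, a steroid receptor RNA activator, rose by 0.50 ± 0.041, Cd14, a co-receptor for lipopolysaccharide, by 0.36 ± 0.051, Ik, a splicing factor, by 0.28 ± 0.032 and Wdr55, a nucleolar WD-repeat protein, by 0.23 ± 0.028. Ankhd1, an ankyrin-repeat protein, fell by 0.25 on the log2 scale (SE 0.048, edgeR adjusted p = 0.0048). Taf7, a subunit of the general factor TFIID that lies between the beta and gamma clusters, had 23.3, 23.6 and 23.2 CPM in the Dox libraries, against 18.3, 16.9 and 17.1 CPM in the Vehicle libraries (log2 fold change 0.42 ± 0.048, edgeR adjusted p = 0.00038).

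Downstream of the gamma cluster 2 neighbours fell and 1 rose. Diaph1, a formin that nucleates actin filaments and the next gene after Pcdhgc5, had 36.8, 32.3 and 35.4 CPM in the Dox libraries, against 66.7, 71.0 and 72.0 CPM in the Vehicle libraries (log2 fold change -1.005 ± 0.058, edgeR adjusted p = 2e-05). Fchsd1, an F-BAR membrane protein, had 0.399, 0.344 and 0.473 CPM in the Dox libraries, against 9.09, 8.57 and 9.39 CPM in the Vehicle libraries (log2 fold change -4.47 ± 0.11, edgeR adjusted p = 1.7e-06). Both genes had every Dox library far below every Vehicle library. Hdac3, a histone deacetylase that lies between them, had a log2 fold change of -0.09 ± 0.11 (edgeR adjusted p = 0.49), with 83.2 to 86.8 CPM in Dox and 75.4 to 99.6 CPM in Vehicle libraries. Arap3, which activates the GTPase activity of ARF proteins, rose by 0.78 ± 0.17 (edgeR adjusted p = 0.0073). Ankhd1, Wdr55, Hars and Fchsd1 share exonic bases with AC115631.1, Dnd1, Hars2 and Rell2, and their counts could include reads from those genes. Of 25 other annotated transcripts between the ends of the clusters, 7 were tested and 2 were called higher, Gm37446 and the pseudogene Gm8242. The share of all genes tested that were called higher was 25.9%.

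**Figure D5:**
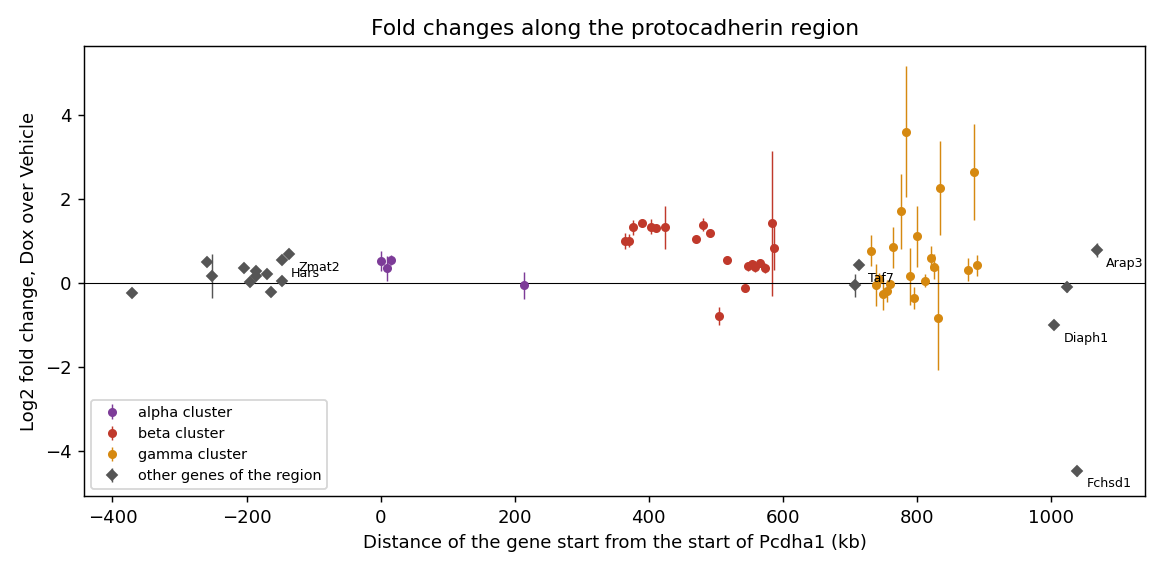
Log2 fold change, Dox over Vehicle, with its standard error (vertical axis) for tested genes by the distance of their start from the start of Pcdha1 (horizontal axis, kb). Alpha, beta and gamma genes are circles and other genes of the region diamonds. Of the 20 beta genes 18 lie above 0, with the upstream ones at 1.00 to 1.43, and Pcdhb12 and Pcdhb15 lie below 0, gamma genes scatter with wide errors, and Diaph1 and Fchsd1 lie below 0.

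Factors known to act on the clusters were tested as a list of 22 genes, of which 2 rose and 12 fell, beside 25.9% of all genes tested that rose and 28.8% that fell, with a median log2 fold change of -0.25. Of the DNA methyltransferase genes, Dnmt3a and Dnmt3b fell, and Dnmt1, the most abundant, was not called (log2 fold change -0.03 ± 0.031, edgeR adjusted p = 0.44). Dnmt3b, whose product methylates clustered protocadherin promoters in the mouse embryo, had 2.56, 2.57 and 2.56 CPM in the Dox libraries, against 6.20, 6.17 and 6.29 CPM in the Vehicle libraries (log2 fold change -1.28 ± 0.052, edgeR adjusted p = 5.5e-06). Dnmt3a had 9.49, 10.8 and 9.09 CPM in the Dox libraries, against 36.2, 20.7 and 37.0 CPM in the Vehicle libraries (-1.67 ± 0.23, edgeR adjusted p = 0.001). Tet3, which oxidises methylcytosine, fell by 0.80 on the log2 scale, Pds5b, a cohesin regulator, by 0.72 and Trim28, a corepressor that recruits the histone methyltransferase SETDB1, by 0.69. Smchd1, which silences clustered protocadherin genes in the mouse, rose by 0.22 ± 0.035 (edgeR adjusted p = 0.002). Ctcf, the insulator protein at these promoters, had 108, 113 and 112 CPM in the Dox libraries, against 121, 123 and 121 CPM in the Vehicle libraries (-0.13 ± 0.026, edgeR adjusted p = 0.0052), and with upper-quartile scaling it was not called (-0.04, adjusted p = 0.25). Rad21, the cleavable subunit of cohesin, fell by 0.24 (edgeR adjusted p = 0.00062). Of the other cohesin subunit genes listed, Smc1a rose by 0.13 (edgeR adjusted p = 0.006). Stag2 fell by 0.45 on the log2 scale (edgeR adjusted p = 0.00013), and Smc3 and Stag1 were not called. Messenger RNA levels of these factors do not measure their binding at the clusters, and their part in the member values was not tested.

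Proteins that cut clustered protocadherins or act after them were tested as a list of 24 genes, 22 of them tested, of which 3 rose and 13 fell, beside 25.9% and 28.8% of all genes tested, with a median log2 fold change of -0.24. Nlgn2, a postsynaptic adhesion protein that gamma protocadherins bind, had 2.58, 2.09 and 2.21 CPM in the Dox libraries, against 27.6, 27.6 and 28.5 CPM in the Vehicle libraries (log2 fold change -3.60 ± 0.086, edgeR adjusted p = 1.5e-06). Its relative Nlgn1 rose by 0.57 ± 0.061 (edgeR adjusted p = 0.0003). Of the gamma-secretase genes, Aph1b fell by 1.55 and Psenen by 1.03 on the log2 scale (SE 0.12 and 0.11). Wasf1, a subunit of the WAVE complex that drives actin branching, fell by 1.28, and Fyn, a Src-family kinase, by 0.81.

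Protocadherins outside the clusters were called in both directions. Of 12 listed, 5 were tested, of which 2 rose and 1 fell, beside the same shares of all genes (25.9% and 28.8%), with a median log2 fold change of 0.11. Pcdh1, which lies downstream on the same chromosome, had 27.2, 18.9 and 18.8 CPM in the Dox libraries, against 44.3, 40.9 and 40.3 CPM in the Vehicle libraries (-0.95 ± 0.15, edgeR adjusted p = 0.0019). Pcdh17 and Pcdh10, adhesion proteins of the non-clustered delta group, rose by 0.70 ± 0.12 and 0.26 ± 0.045. Of 25 other cadherin superfamily genes, 14 were tested, of which 2 rose and 4 fell, beside 25.9% and 28.8% of all genes tested. The median log2 fold change of the 14 was -0.19. Cdh2, N-cadherin, had 42.1, 43.2 and 44.7 CPM in the Dox libraries, against 91.3, 93.2 and 92.9 CPM in the Vehicle libraries (-1.09 ± 0.032, edgeR adjusted p = 2.2e-06). Cdh1, E-cadherin, fell by 1.32, Cdh24 by 1.09 and Clstn1, a calsyntenin, by 0.56 on the log2 scale, while Cdh10 rose by 0.64 ± 0.063. Dchs2, a large atypical cadherin, was called higher at 0.57 ± 0.16, a call that was lost without Dox replicate 2 or 3, without Vehicle replicate 1 or 3 and with the DESeq2 Wald test. Whether the beta genes differ from these other cadherins in their response was not tested.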

How the data were processed

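The authors deposited whole-number counts per gene symbol, 1 column for each of 6 libraries, with 0 rows that name no gene. FastQC 0.11.3, HISAT2 2.1.0, StringTie 1.3.3, DESeq2 and GRCm38 appear in the submitters' processing notes, with no role or order. The sources used here give neither the annotation, nor the strand setting, nor how reads matching several genes were counted. A second deposited table, per the file headers, holds the authors' comparison of Dox with Vehicle, with a mean level as signal, log2 fold changes with their errors, a test score, p-values and adjusted p-values. Its marked genes have an adjusted p under 0.01.

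Of 29493 genes, 18067 passed filterByExpr. They were scaled by TMM and fitted on all 6 libraries without covariates by edgeR 4.0.16 (quasi-likelihood test, R 4.3.3, limma 3.58.1), with Benjamini-Hochberg adjustment over all of them and a threshold of 0.05. CPM are counts over effective library sizes, and 3 counts equal 0.0579 to 0.0795 CPM. A standard error was obtained by dividing the size of a log2 fold change by the root of its F value. With 3 libraries a group, exact permutation reaches p = 0.1 at best and was left out. The fit was tested on simulated data. Chi-square per degree of freedom between replicates was 12.0 to 14.9, above sampling noise. Each library was treated as 1 sample, and the chi-square does not show whether replicates are separate cultures.

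Positions, exons, transcript lengths and shared 50-base and 100-base stretches (either strand) come from GENCODE M21, which may differ from the authors' annotation. Overlaps count from 50 exonic bases. The members, gene lists and rules were chosen with earlier results of these data known. Genes named are all members, Klf13, called neighbours, up to 6 called genes of at least 1 CPM with the largest changes of each other list with Ctcf, Smchd1, Rad21 and Pcdh1, and the 3 most abundant markers of each cell type. Some genes that this rule would name are not reported here. Other genes were named after their values were seen. Alternatives were other scalings (DESeq2 size factors, upper quartile, total counts), other tests (DESeq2 1.42.0, limma-voom), other filters (none, a mean of at least 1 CPM), an adjusted p under 0.01, a replicate block and leaving out each library. Added after seeing the data were the beta sum without Pcdhb21 and Pcdhb22 and the gamma sum with Gm42416 and Gm38182, which overlap gamma exons.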

Additional observations from a re-analysis of the deposited data

How the results depend on the processing

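The count of members called higher was 12 to 19 over all alternatives run, against 16 in the report, with 13 to 19 when single libraries were left out. The count called lower was 1 in the report, which is Pcdhb12, and 0 with a mean of at least 1 CPM, with the DESeq2 Wald test and at an adjusted p under 0.01, with a range of 0 to 1 when single libraries were left out. The DESeq2 Wald test left Pcdha3, Pcdhb2, Pcdhb18 and Pcdhb20 uncalled, and limma-voom, DESeq2 size factors and no filter each left Pcdhb18 uncalled. Genes called over the whole table numbered 7776 to 10703, against 9890. The log2 ratio of the alpha sum was 0.52 with upper-quartile scaling, and 0.37 to 0.48 when single libraries were left out. For the gamma sum it was 0.38 with upper-quartile scaling, 0.36 with total counts, 0.20 over the rows that pass filterByExpr, which drops Pcdhga10, and 0.25 to 0.31 when single libraries were left out. The cause of the changes with scaling was not tested. For the beta sum it was 0.73 to 0.88 over all alternatives run. Of 558 fold changes of members under the alternatives, 549 moved by less than the spread between replicates, 9 moved by more, 6 of these gamma genes without Dox replicate 2, and 0 called ones changed sign. With the replicate number as a block, 15 members were called higher and 1 lower, with the calls of Pcdhb18 and Pcdhb20 lost and that of Pcdhgc3 gained. Deviations of same-numbered libraries from their group means had correlations of 0.069, 0.052 and -0.094 (14635 genes), and the numbers are read as names only. At 1 to 40 counts, as for Pcdhb2, Pcdhb8, Pcdhb10, Pcdhb12 and most alpha genes, depth limits what can be seen.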
